A study of Mus musculus with 6 samples.

Results

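Receptor tyrosine kinases were examined in the murine lung cancer cell line 889, as 10 genes chosen by name: Egfr, Erbb2, Erbb3, Met, Axl, Fgfr1, Pdgfra, Pdgfrb, Ddr1 and Ddr2. The rule took each gene of this name among the 34745 genes of the count tables, and all 10 were found once. RNA-seq had been run on 3 libraries of 889 cells with a control sgRNA (sg-con) and 3 libraries of 889 cells with an sgRNA against kiaa1522 (sg-kiaa1522), and every value compares these groups. According to the labels the cells are of C57BL/6 lung origin and the second group is KIAA1522-downregulated. All cells of both groups received a lentiCRISPR vector (lentiCRISPRv2 for the sgRNAs against kiaa1522), which brings Cas9 with the sgRNA, and the control sgRNA was directed against EGFP. Which of the study's sgRNAs was in the sequenced cells, and whether they were a pool or a clone, is not given in the sources used here.

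Receptor tyrosine kinases are membrane proteins that bind a ligand outside the cell, pair up and phosphorylate tyrosines on each other, which recruits adaptor proteins and starts RAS-MAPK and PI3K signaling. In lung cancer the ErbB receptors, MET and FGFR1 are known as drivers or bypass routes of drug resistance, and AXL is known for its link to a mesenchymal cell state. The PDGF receptors and DDR2 are typical of mesenchymal cells, whereas ERBB3 and DDR1 are typical of epithelium. The DDR proteins stand apart from the other receptors because their ligand is collagen, a solid matrix protein, in place of a soluble growth factor.

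The 10 receptors split into 3 kinds in these cells. Axl, Ddr1, Met, Erbb2, Pdgfrb and Erbb3 had at least 367 counts in every library. Egfr, Fgfr1 and Pdgfra had at most 7 counts in any library. Ddr2 was close to absent in sg-con (6, 1 and 5 counts) and present in sg-kiaa1522 (165, 243 and 261 counts). Against sg-con, Ddr2 was higher, Pdgfrb, Ddr1 and Erbb3 fell, and Erbb2, Met and Axl did not pass the test.

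The libraries held between 12220001 and 18609376 counts, the lowest total being that of sg-kiaa1522 replicate 1. A level of 3 counts, used as the floor of detection, corresponded to between 0.161 and 0.246 CPM, counts scaled to a common library size by edgeR's TMM method, and such floors cover counting error only. The labels do not say that the 3 libraries of a group came from separate cultures, so the p-values measure the spread between these libraries, which may be technical. The targeted gene, kiaa1522 (C77080 in the mouse annotation), had 126, 129 and 123 CPM in sg-con and 209, 202 and 215 CPM in the libraries labelled sg-kiaa1522. Its mRNA was thus higher in the libraries labelled as downregulated, with a log2 fold change of 0.73 ± 0.0569 (SE; edgeR adjusted p = 9.1e-05), so the mRNA does not check the label. Every direction below is that of the libraries labelled sg-kiaa1522. One library stood apart within its group: over all genes, the chi-square of the counts per degree of freedom was 23.4 and 30.7 between sg-con replicate 1 and the other sg-con libraries, against 12.3 to 12.8 for the other pairs within a group. Without it, 5822 in place of 5277 genes were called at an adjusted p of 0.05 (edgeR). Pdgfrb, Ddr1 and Erbb3 were called without it as well, with adjusted p of 0.015, 0.0056 and 0.0051 (edgeR). Of the epithelial markers, Krt18 and Krt8 stood at 1800 CPM or more and 931 CPM or more in every library, but Epcam was at 0 in all 6 and Cldn4 had at most 1 count.

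Levels were compared between genes as TPM, which divides the counts by the summed exon length of the gene. Axl had the highest level, 561 TPM over the 6 libraries, above 99.4% of the protein-coding genes. Ddr1 followed with 90.3 TPM, Met with 53.4 TPM and Erbb2 with 30.2 TPM. Between these neighbours, Axl and Ddr1 were far apart in every library, and Ddr1 was above Met in every library although the lowest Ddr1 level (61.6 TPM) lay under the highest Met level (62.5 TPM). Pdgfrb (16.6 TPM) and Erbb3 (16.3 TPM) did not differ beyond their spread, which ran from 11.0 to 20.5 TPM and from 13.7 to 20.5 TPM. Ddr2 came next with 2.11 TPM, almost all of it from sg-kiaa1522. Pdgfra (0.0489 TPM), Fgfr1 (0.0277 TPM) and Egfr (0 TPM) ended the order, at levels too low to rank. The order of the 10 was the same when the mean transcript length replaced the summed exons.

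**Figure D1:**
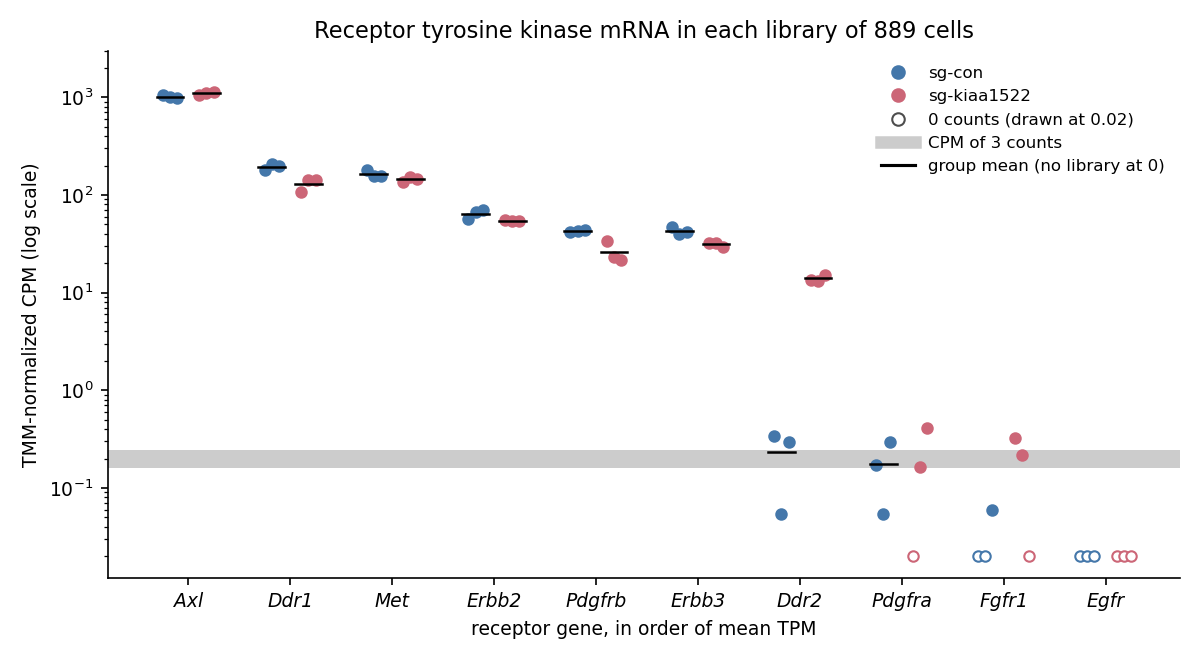
TMM-normalized CPM on a log scale for each of the 10 receptors in the 3 sg-con (blue) and 3 sg-kiaa1522 (red) libraries, in order of their mean TPM, with a black line at the group mean where no library is at 0. Open points at 0.02 are libraries with 0 counts, and the gray band is the CPM of 3 counts (0.161 to 0.246). Ddr2 goes from at most 0.343 CPM in sg-con to between 13.2 and 15.3 CPM, while Egfr stays at 0 in all 6 libraries.

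Ddr2 encodes discoidin domain receptor 2, a receptor for fibrillar collagens that is best known from fibroblasts and other mesenchymal cells. The gene lies at chr1:169972307-170110762 on the minus strand (GRCm38). In CPM, the sg-kiaa1522 libraries had 13.5, 13.2 and 15.3, whereas the 3 sg-con libraries had at most 0.343. No sg-con library came near an sg-kiaa1522 library, and the 3 sg-kiaa1522 libraries lay close together. Over the pooled libraries 12 counts stood against 669, a ratio of 61.8 with an exact 95% counting interval from 35.2 to 120.3. This interval covers counting error only and leaves out the spread between libraries. The fit gave a log2 fold change of 5.90 ± 0.315 (SE, n = 3 and 3). Only 6 of the tested genes had a higher log2 fold change. Ddr2 passed the filter of more than 500 counts over the 6 libraries through its sg-kiaa1522 counts alone, so that it had to differ once it was in the fit, and its values are given as a description with no test. In bulk RNA, fewer cells of a type and less RNA per cell cannot be told apart, and the same holds for the reverse.

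Genes were called past the threshold where the adjusted p (quasi-likelihood test of edgeR, Benjamini-Hochberg adjusted over 10046 genes) was 0.05 or less and the log2 fold change was 1 or more in either direction, which 7.08% of all tested genes were. Ddr2 is left out of the counts that follow, since its call was fixed by the filter, and none of the other 6 tested receptors was past the threshold. At the adjusted p alone, 3 of these 6 were called, against 52.5% of all tested genes. All 3 were lower, and over all tested genes 26.3% were called higher and 26.3% lower. The libraries of sg-con and sg-kiaa1522 did not overlap in CPM for 5 of these 6 genes, and 61.7% of all tested genes did the same. In TPM, Erbb2 and Met overlapped and Axl did not. The share called is near its background and the share without overlap in CPM lies above its own. Neither is read as a result about the receptors.

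Ddr1, the other collagen receptor, is known from epithelial cells and binds both fibrillar collagens and the collagen IV of basement membranes. It lies at chr17:35681567-35704621 on the minus strand. Its CPM was 178, 209 and 198 in sg-con and 107, 143 and 143 in sg-kiaa1522. Every sg-kiaa1522 library lay under every sg-con library, and sg-kiaa1522 replicate 1 was the lowest of all. Ddr1 fell from 195 ± 15.8 to 131 ± 20.4 CPM (SD, n = 3 and 3), to 67.2% of sg-con, with a log2 fold change of -0.57 ± 0.121 (SE; edgeR adjusted p = 0.0058). Although the receptors moved in opposite directions, Ddr1 remained the more abundant collagen receptor in every library: in sg-kiaa1522 its TPM was 15.4, 21 and 18.1 times that of Ddr2. An antisense gene, Gm4577, shares 4.52% of the exon bases of Ddr1 and had at most 1 count in any library, and 3110045C21Rik, antisense to Ddr2 over 0.972% of its exon bases, had at most 4.

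The RefSeq promoter windows of the collagen receptors are shown because these genes encode receptors of the same kind of ligand and moved in opposite directions. Each window runs from 250 bases before to 50 bases after the annotated start and is read 5′ to 3′ on the strand of the gene, from GRCm38.p6. Capitals mark a GC box (GGGCGG) or a TATA box (TATAAA), searched on both strands, so that a match on the opposite strand appears as CCGCCC or TTTATA. The Ddr2 window, at chr1:170088895-170089194, lies inside the GENCODE gene, which extends farther upstream. The Ddr1 window, at chr17:35704550-35704849, is the most upstream of 4 listed for this gene.
Ddr2: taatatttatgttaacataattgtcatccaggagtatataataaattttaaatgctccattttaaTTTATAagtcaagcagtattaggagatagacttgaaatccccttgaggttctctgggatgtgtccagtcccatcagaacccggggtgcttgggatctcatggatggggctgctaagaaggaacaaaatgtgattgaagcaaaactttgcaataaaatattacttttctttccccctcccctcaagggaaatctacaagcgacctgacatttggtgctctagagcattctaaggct
Ddr1: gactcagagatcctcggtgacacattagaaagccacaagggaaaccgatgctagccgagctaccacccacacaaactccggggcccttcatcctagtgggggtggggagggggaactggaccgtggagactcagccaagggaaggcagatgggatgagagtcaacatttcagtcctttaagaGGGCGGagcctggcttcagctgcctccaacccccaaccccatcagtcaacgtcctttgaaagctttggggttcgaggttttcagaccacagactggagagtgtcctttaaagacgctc
The Ddr2 window had a GC content of 39.0% and 2 CpG dinucleotides, and 23.3% of all windows had no more than that. It held 1 TATA box, whose letters begin 185 bases before the start, and no GC box. The Ddr1 window had 9 CpG dinucleotides and 1 GC box beginning 68 bases before the start, and another of its 4 windows, at chr17:35700541-35700840, had 39 CpG dinucleotides and 3 GC boxes. Among all 32851 promoter windows, the median number of CpG dinucleotides was 7, 35.7% held a GC box and 13.6% held a TATA box. These are letter matches and not sites of binding.

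The genes of the collagens that the DDR proteins bind were followed as a list of 8, of which 4 were tested. Of these, 3 fell at the adjusted p, against 26.3% of all tested genes, none rose, and the median log2 fold change was -0.98, against -0.01 over all tested genes. Col5a1, a chain of collagen V, had 150, 145 and 144 CPM in sg-con and 57.4, 46.1 and 44.8 CPM in sg-kiaa1522. Col1a2, a chain of collagen I, had 417, 418 and 431 CPM in sg-con and 161, 156 and 142 CPM in sg-kiaa1522. Both genes were past the threshold, at log2 fold changes of -1.57 ± 0.101 and -1.46 ± 0.0661 (SE; edgeR adjusted p = 4.8e-05 and 1.5e-05), which 4.34% of all tested genes reached in this direction. Col4a1, a chain of collagen IV, fell by 0.49 on the log2 scale (SE 0.0656, edgeR adjusted p = 0.00077). Its partner Col4a2 did not pass the test (-0.04 ± 0.0664, adjusted p = 0.62). Col1a1, the partner chain of Col1a2, was under the filter and was chosen here after its values were seen: it had 105, 126 and 137 counts in sg-con and 20, 29 and 34 counts in sg-kiaa1522. The collagen genes were thus lower or not called in the libraries in which Ddr2 was higher.

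**Figure D2:**
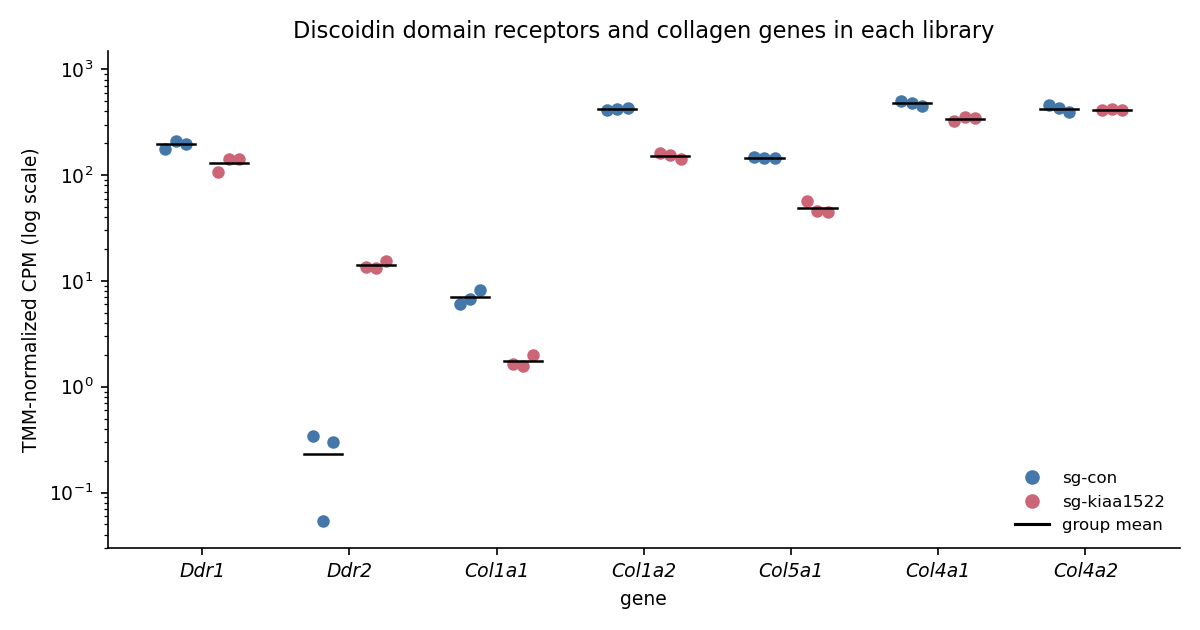
TMM-normalized CPM on a log scale for Ddr1, Ddr2 and 5 collagen genes in each sg-con (blue) and sg-kiaa1522 (red) library, with a black line at the group mean. Ddr2 is the only gene with higher sg-kiaa1522 libraries, Ddr1, Col1a1, Col1a2, Col5a1 and Col4a1 have lower ones, and the groups overlap for Col4a2.

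Ddr2 is a fibroblast gene by its usual expression, so the levels of 8 fibroblast markers stand beside it. Of these, 1 was tested, Col1a2, and it fell as given above. Thy1 and Fap were at 0 in all 6 libraries, and 5 of the 8 had at most 3 counts in every library, Dcn and Lum among them. The summed CPM of the list was 423 to 440 in sg-con and 144 to 163 in sg-kiaa1522, nearly all of it Col1a2. Of 7 leukocyte and macrophage markers, Cd68 was the gene that passed the filter, with 1.19 ± 0.0509 CPM in sg-con and 11.2 ± 1.40 CPM in sg-kiaa1522 (SD, n = 3 and 3). In that list Adgre1 and Cd3e were at 0, Ptprc had at most 14 counts, and the summed CPM was 2.36 to 6.00 in sg-con and 11.2 to 13.8 in sg-kiaa1522. Of 6 endothelial markers, Vwf was the gene that passed the filter, with 66, 65 and 40 counts in sg-con and 128, 189 and 144 in sg-kiaa1522, whereas Emcn was at 0, Cdh5 had at most 5 counts and Pecam1 had at most 21. Like Ddr2, both genes passed the filter only through their higher sg-kiaa1522 counts, so their values are a description and no test is given. The summed CPM of that list was 3.64 to 5.43 in sg-con and 9.38 to 11.7 in sg-kiaa1522. The part of these genes in the level of Ddr2 was not tested.

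Pdgfrb and Pdgfra encode the receptors of the platelet-derived growth factors, which are known from pericytes, smooth muscle and fibroblasts. Pdgfrb, at chr18:61045150-61085061 on the plus strand, had 41.5, 42.9 and 44.2 CPM in sg-con and 33.9, 23.0 and 21.5 CPM in sg-kiaa1522. The sg-con libraries were tight and all lay above the sg-kiaa1522 libraries, of which replicate 1 stood higher than the other two. Pdgfrb fell from 42.8 ± 1.36 to 26.2 ± 6.79 CPM (SD, n = 3 and 3), to 61.1% of sg-con, with a log2 fold change of -0.72 ± 0.166 (SE; edgeR adjusted p = 0.0086). A lower log2 fold change was found for 9.17% of all tested genes. Pdgfra had 3, 1 and 5 counts in sg-con and 0, 3 and 7 counts in sg-kiaa1522, at the floor in both groups, so no fold is given. In a fit on all 18499 genes with a count its adjusted p was 0.86 (edgeR).

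Among 6 pericyte and smooth muscle markers, Cspg4 was the tested gene. It fell from 137 ± 3.19 to 69.9 ± 10.8 CPM (SD, n = 3 and 3), with a log2 fold change of -0.97 ± 0.111 (SE; edgeR adjusted p = 0.0004). Acta2 and Rgs5 had at most 2 counts in any library. The summed CPM of the list was 135 to 141 in sg-con and 59.3 to 81.7 in sg-kiaa1522, nearly all of it Cspg4, and the part of this gene in the fall of Pdgfrb was not tested. Of 4 PDGF ligands, 2 were tested and they differed in direction: Pdgfb fell by 0.86 on the log2 scale (SE 0.158, edgeR adjusted p = 0.0031), and Pdgfc rose by 0.50 (SE 0.112, edgeR adjusted p = 0.0079). The product of Pdgfb binds both PDGF receptors, and that of Pdgfc binds mainly the receptor encoded by Pdgfra. Pdgfa had at most 6 counts and Pdgfd was at 0.

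The ErbB family was represented by Erbb2 and Erbb3 without Egfr. Egfr, the receptor of EGF and amphiregulin, had 0 counts in each of the 6 libraries, which allows at most 0.161 to 0.246 CPM by library. It lies at chr11:16752203-16918158 on the plus strand. Of the 21633 protein-coding genes in the tables, 31.0% were at 0 in all libraries as well. Erbb4, a further member of the family outside the 10, was also at 0. The Egfr promoter window, at chr11:16751953-16752252 on the plus strand (GRCm38.p6), is shown as that of the receptor with 0 counts in all 6 libraries, with the GC box on the opposite strand in capitals.
Egfr: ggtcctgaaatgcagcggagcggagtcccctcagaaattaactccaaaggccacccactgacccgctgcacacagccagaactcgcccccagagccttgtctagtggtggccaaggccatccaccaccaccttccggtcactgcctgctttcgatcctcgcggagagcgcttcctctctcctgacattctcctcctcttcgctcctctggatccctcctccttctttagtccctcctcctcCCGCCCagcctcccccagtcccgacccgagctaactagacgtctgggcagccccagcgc
It had 15 CpG dinucleotides, more than the median of 7 over all windows, and its GC box begins 9 bases before the start.

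Erbb2, which encodes the ErbB receptor without a known ligand of its own, had 56.3, 67.0 and 69.6 CPM in sg-con and 55.9, 53.6 and 53.8 CPM in sg-kiaa1522. The groups did not overlap in CPM, but sg-con replicate 1 lay within 1 CPM of the nearest sg-kiaa1522 library. In TPM they overlapped, with 28.5 to 34.0 in sg-con and 27.9 to 29.4 in sg-kiaa1522. The log2 fold change was -0.24 ± 0.0952 (SE; edgeR adjusted p = 0.067), with a 95% confidence interval from -0.46 to -0.02 that is not adjusted for the number of genes. Without sg-con replicate 1 the log2 fold change was -0.34 and the adjusted p 0.0044 (edgeR), so that library decides whether Erbb2 is called. Erbb3, which encodes the neuregulin receptor that pairs with ERBB2 and has little kinase activity of its own, had 46.7, 40.1 and 42.0 CPM in sg-con and 32.1, 32.1 and 29.5 CPM in sg-kiaa1522. All sg-kiaa1522 libraries lay under all sg-con libraries. Erbb3 fell from 42.9 ± 3.38 to 31.2 ± 1.51 CPM (SD, n = 3 and 3), to 72.8% of sg-con, with a log2 fold change of -0.46 ± 0.0891 (SE; edgeR adjusted p = 0.0040). Erbb3 lies at chr10:128567523-128589652, and the tested genes of chromosome 10 had a median log2 fold change of -0.19. Relative to that median Erbb3 stood at -0.27 (edgeR adjusted p = 0.038). Per length, the level of Erbb2 was 1.74 ± 0.305 times that of Erbb3 in sg-con and 2.02 ± 0.0911 times in sg-kiaa1522 (SD, n = 3 and 3), and these ratios overlapped between the groups. With mean transcript lengths in place of summed exons, tried for this ratio after seeing the data, it was 2.77 ± 0.485 in sg-con and 3.20 ± 0.145 in sg-kiaa1522, and the groups overlapped as well.

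The ligands of the ErbB receptors are the EGF family and the neuregulins. Of 11 such genes, 6 were tested, 3 rose at the adjusted p and none fell, where 26.3% of all tested genes were called in each direction, and the median log2 fold change was 0.30. Areg, which encodes amphiregulin, had 221, 241 and 263 CPM in sg-con and 307, 295 and 304 CPM in sg-kiaa1522, a log2 fold change of 0.32 ± 0.0737 (SE; edgeR adjusted p = 0.0082). Hbegf, which encodes a ligand of EGFR and ERBB4, did not pass the test (-0.15 ± 0.0995, edgeR adjusted p = 0.23), and its groups overlapped. The other 2 that rose, named after their values were seen, were Ereg (0.57 ± 0.0739, edgeR adjusted p = 0.00068) and Nrg1 (0.89 ± 0.18, edgeR adjusted p = 0.0048). Nrg1 encodes neuregulin 1, a ligand of ERBB3, and had 5.49 ± 0.995 CPM in sg-con and 10.1 ± 1.48 CPM in sg-kiaa1522 (SD, n = 3 and 3). Under the filter and also named after their values were seen, Nrg2 had 86, 116 and 98 counts in sg-con and 41, 81 and 60 in sg-kiaa1522, and Egf had 22, 28 and 19 against 10, 18 and 14. In both the sg-kiaa1522 libraries lay lower in CPM without overlap, and neither was tested. Nrg3 was at 0 and Tgfa had at most 2 counts.

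Membrane-bound EGF ligands and several receptors are cut from the cell surface by ADAM proteases. Of 5 such sheddase genes all were tested, 3 fell at the adjusted p, against 26.3% of all tested genes, none rose, and the median log2 fold change was -0.34. Adam10 had 497, 175 and 401 CPM in sg-con and 135, 145 and 139 CPM in sg-kiaa1522, with a log2 fold change of -1.36 ± 0.328 (SE; edgeR adjusted p = 0.010). The sg-con libraries differed widely, and replicate 2 lay near the sg-kiaa1522 libraries. Adam9 did not pass the test (0.13 ± 0.110, edgeR adjusted p = 0.36).

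Axl encodes a receptor of the TAM family, whose ligands GAS6 and protein S bridge it to phosphatidylserine on membranes. It lies at chr7:25757273-25788705 on the minus strand. Its CPM was 1066, 1009.5 and 973 in sg-con and 1061, 1099 and 1137 in sg-kiaa1522. The groups overlapped in CPM, since sg-con replicate 1 lay above sg-kiaa1522 replicate 1. In TPM they did not, with 492 to 560 in sg-con and 577 to 631 in sg-kiaa1522. The log2 fold change was 0.11 ± 0.0584 (SE; edgeR adjusted p = 0.14), with a 95% confidence interval from -0.02 to 0.25. An exact two-sided permutation test of the CPM gave p = 0.20, where 0.10 is the smallest that 3 against 3 allows. Without sg-con replicate 1 the log2 fold change was 0.14 and the adjusted p 0.046 (edgeR), so the same library decides whether Axl is called. The Axl promoter window, at chr7:25788684-25788983 on the minus strand (GRCm38.p6), is shown as that of the most abundant receptor, with GC boxes in capitals.
Axl: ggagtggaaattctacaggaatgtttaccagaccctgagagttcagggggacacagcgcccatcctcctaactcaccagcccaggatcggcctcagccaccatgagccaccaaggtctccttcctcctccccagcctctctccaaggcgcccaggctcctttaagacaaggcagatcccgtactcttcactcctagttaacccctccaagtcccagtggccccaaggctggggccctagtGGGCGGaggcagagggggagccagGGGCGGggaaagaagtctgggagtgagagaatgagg
It held 2 GC boxes, beginning 10 bases before and 14 bases after the start, and 6 CpG dinucleotides.

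The other TAM receptors, Tyro3 and Mertk, are named after their values were seen. Tyro3 had 33.1 ± 2.26 CPM in sg-con and 26.2 ± 2.04 CPM in sg-kiaa1522, and Mertk had 7.52 ± 0.488 and 5.59 ± 0.0930 CPM (SD, n = 3 and 3). Both fell, with log2 fold changes of -0.34 ± 0.0963 and -0.43 ± 0.121 (SE; edgeR adjusted p = 0.020 for each), but neither kept its call without sg-con replicate 2 or 3 or sg-kiaa1522 replicate 2 or 3, where the adjusted p ran up to 0.076 for Tyro3 and 0.074 for Mertk. With the replicate block it was 0.063 for Tyro3 and 0.065 for Mertk, and with DESeq2's Wald test it was 0.074 for Mertk. The TPM of Axl was 38.0 ± 4.43 times that of Tyro3 in sg-con and 52.0 ± 5.02 times in sg-kiaa1522 (SD, n = 3 and 3). These ratios did not overlap between the groups. The genes of its ligands were near the floor: Gas6 had 18, 24 and 13 counts in sg-con and 0, 6 and 2 in sg-kiaa1522, and Pros1 had between 5 and 20 counts in every library.

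Met, which encodes the receptor of hepatocyte growth factor, lies at chr6:17463800-17573980 on the plus strand. It had 181, 156 and 155 CPM in sg-con and 136, 152 and 144 CPM in sg-kiaa1522. The groups did not overlap in CPM, although the 2 lower sg-con libraries lay close to sg-kiaa1522 replicate 2. In TPM they overlapped, with 51.4 to 62.5 in sg-con and 48.6 to 53.7 in sg-kiaa1522. The log2 fold change was -0.19 ± 0.0823 (SE; edgeR adjusted p = 0.093), with a 95% confidence interval from -0.38 to 0.01. The gene of its ligand, Hgf, had at most 2 counts in sg-con and 0 in sg-kiaa1522. Neither Hgf, Gas6 nor Pros1 passed the filter, so no ligand gene of Met or Axl was tested.

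Fgfr1 encodes a receptor of fibroblast growth factors and had 0, 0 and 1 counts in sg-con and 4, 4 and 0 counts in sg-kiaa1522. Libraries of both groups were at 0, no library exceeded 0.328 CPM, and no fold is given (edgeR adjusted p = 0.18 in the fit on 18499 genes). Of 18 FGF ligand genes, not all of which encode ligands of FGFR1, 1 was tested, Fgf1, which fell from 84.4 ± 2.6 to 54.5 ± 3.44 CPM (SD, n = 3 and 3; log2 fold change -0.63 ± 0.0742, edgeR adjusted p = 0.00044). Of the 18, 7 were at 0 in all libraries. Among the other FGF receptors, Fgfr3 alone was tested and did not pass (0.16 ± 0.176, edgeR adjusted p = 0.48).

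The 10 receptors were set among 58 receptor tyrosine kinase genes, of which the other 48 give the background of the family. Of those 48, 15 passed the filter and 23 had at most 3 counts in every library. The 10 receptors held 55.9 ± 0.140% of the summed TPM of the 58 in sg-con and 57.7 ± 0.904% in sg-kiaa1522 (SD, n = 3 and 3). Axl made up 38.7 ± 0.885% in sg-con and 44.0 ± 0.454% in sg-kiaa1522, and the groups did not overlap, while Ddr1 went from 7.84 ± 0.743% to 5.52 ± 0.763%. Epha2, an ephrin receptor and the second of the 58 by TPM, held 23.6 ± 0.512% and 21.6 ± 0.483%. A share moves when any of the other genes moves, and an exact permutation test of 3 against 3 cannot go below 0.10.

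**Figure D3:**
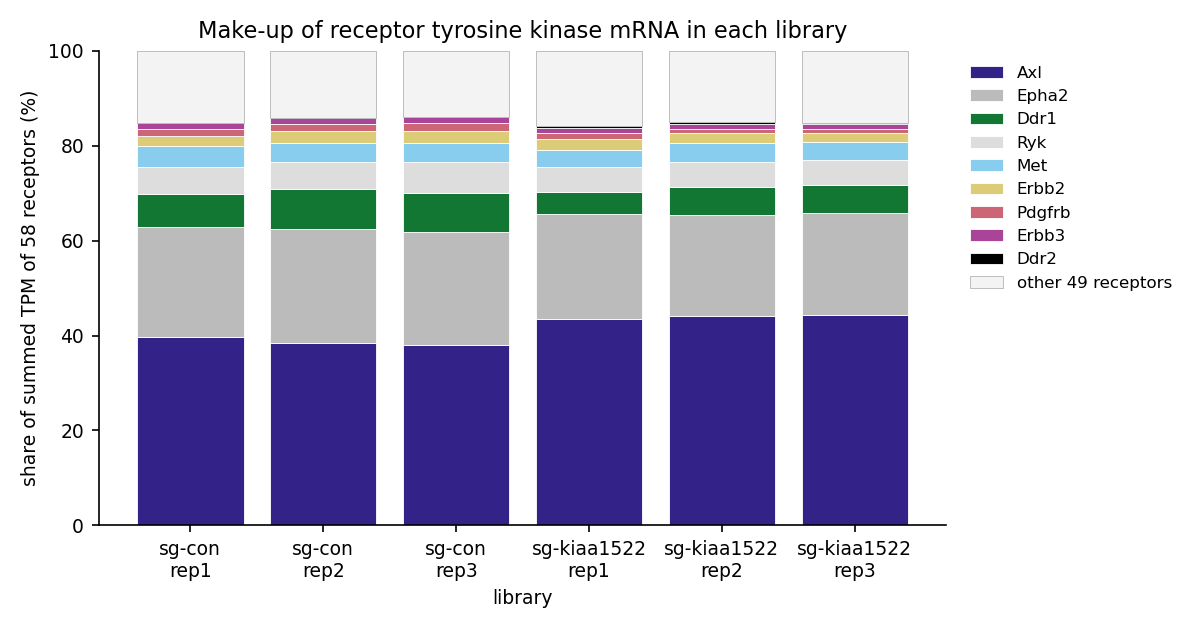
Stacked bars of the share of the summed TPM of 58 receptor tyrosine kinase genes held by each named receptor in each of the 6 libraries, in percent, with the 49 other genes in the palest gray. Axl holds 38.0 to 39.7% in sg-con and 43.5 to 44.4% in sg-kiaa1522, and Ddr2 is a thin black band in sg-kiaa1522.

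Of the 15 tested receptors outside the 10, 6 fell and 2 rose at the adjusted p, a share near the 52.5% of all tested genes that were called, none passed the threshold, and the median log2 fold change was -0.20. Epha2 fell by 0.20 on the log2 scale (SE 0.0514, edgeR adjusted p = 0.014), but its adjusted p was 0.054 without sg-con replicate 2, 0.063 without sg-kiaa1522 replicate 2 and 0.074 with the replicate block. Ryk, a WNT receptor with an inactive kinase domain, fell by 0.27 (SE 0.0614, edgeR adjusted p = 0.0077). The number of calls in this list was 3 in place of 8 without sg-con replicate 2, without sg-kiaa1522 replicate 2 and without sg-kiaa1522 replicate 3. Calls over all genes fell in these fits too, to 4109 of 9837, 4117 of 9852 and 4069 of 9859, from 5277 of 10046.

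**Figure D4:**
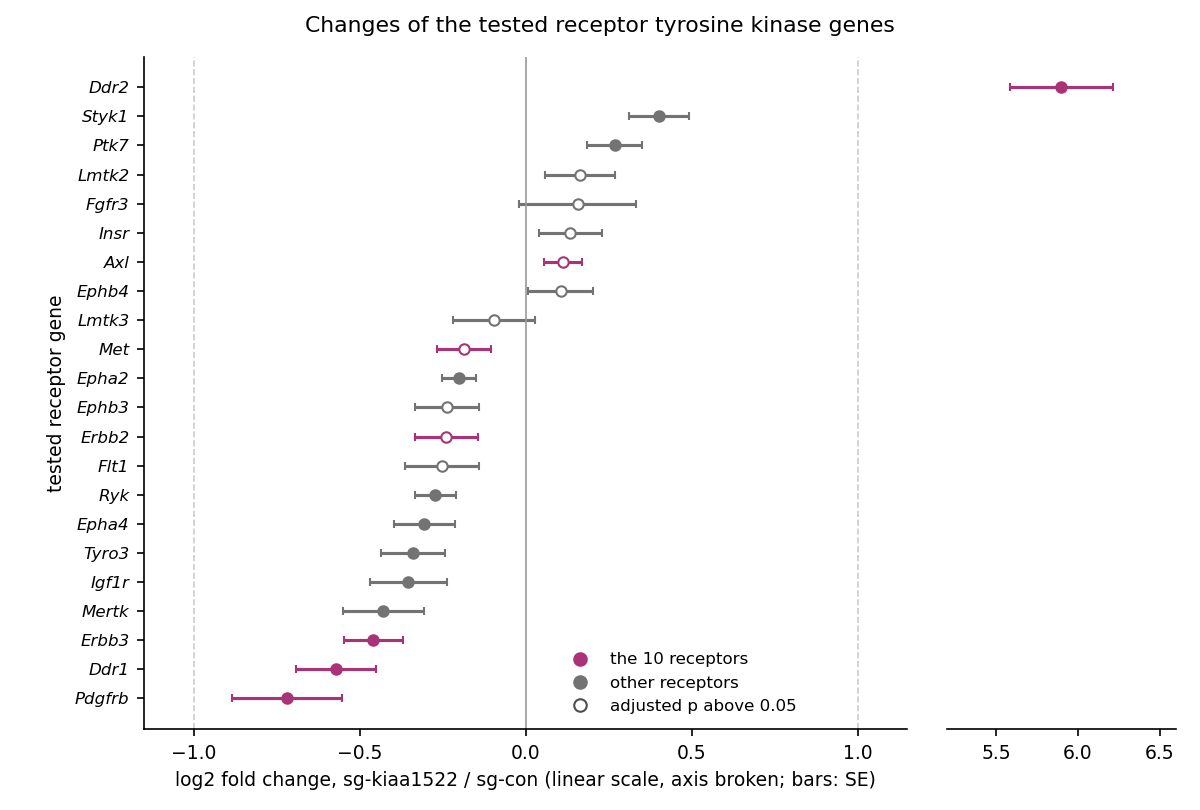
Log2 fold change of sg-kiaa1522 against sg-con (linear axis with a break; bars are standard errors) for the 7 tested receptors of the 10 (purple) and 15 other tested receptors (gray), with filled points at an adjusted p of at most 0.05 and dashed lines at 1 in size. Ddr2 alone lies beyond the dashed lines, at 5.90, and the other receptors lie between -0.72 and 0.40.

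Downstream of the receptors, 31 adaptor and effector genes were followed, of which 27 were tested. Of these, 7 rose and 4 fell, where 52.5% of all tested genes were called, none passed the threshold, and the median log2 fold change was 0.11. Sos1, the exchange factor that loads RAS with GTP, had 196, 159 and 151 CPM in sg-con and 301, 328 and 332 CPM in sg-kiaa1522, a log2 fold change of 0.93 ± 0.105 (SE; edgeR adjusted p = 0.00037). Shc1, an adaptor that binds phosphorylated ErbB and MET receptors, moved the other way, from 308, 308 and 311 CPM to 159, 160 and 174 CPM, a log2 fold change of -0.91 ± 0.0597 (SE; edgeR adjusted p = 5.0e-05). Not every gene of the list passes the signal on: Rasa1, which rose by 0.82 (SE 0.105, edgeR adjusted p = 0.00063) and is named after its values were seen, encodes a RAS GTPase-activating protein. Without sg-kiaa1522 replicate 2 or replicate 3 the calls in the list were 7 in place of 11, and without sg-con replicate 1 they were 16. Over all genes the calls in these 3 fits were 4117, 4069 and 5822, against 5277 with every library.

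Of 23 genes that restrain receptor signaling, 21 were tested, 8 rose and 4 fell, a share near the 52.5% of all tested genes, and the median log2 fold change was 0.12. The 2 past the threshold both rose, a direction in which 2.74% of all tested genes passed. Sh3kbp1, whose product CIN85 works with CBL in the uptake of activated receptors, had 6.51, 6.98 and 9.91 CPM in sg-con and 38.9, 27.4 and 36.8 CPM in sg-kiaa1522, a log2 fold change of 2.14 ± 0.200 (SE; edgeR adjusted p = 0.00017). Spry4, a Sprouty inhibitor of RAS-MAPK signaling, had 59.8, 65.0 and 58.3 CPM in sg-con and 127, 137 and 139 CPM in sg-kiaa1522, a log2 fold change of 1.14 ± 0.0715 (SE; edgeR adjusted p = 4.3e-05). In neither gene did the groups overlap. Spred1 rose by 0.48 (SE 0.0714, edgeR adjusted p = 0.0012), and Ptprf, a receptor phosphatase, fell by 0.53 (SE 0.0630, edgeR adjusted p = 0.00046).

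**Figure D5:**
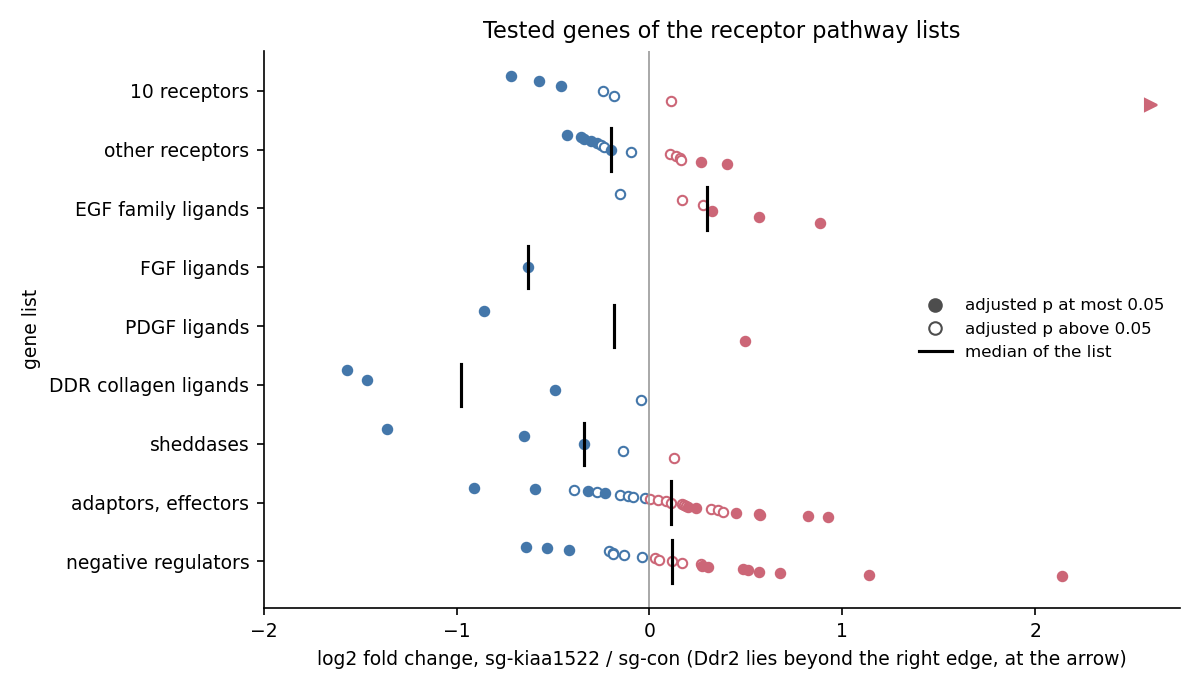
Log2 fold changes (sg-kiaa1522 against sg-con, linear axis) of the tested genes of each receptor pathway list, with filled points at an adjusted p of at most 0.05, blue below 0, red above 0, and a black line at the median of each list except that of the 10 receptors. The tested collagen genes lie at or under -0.04, Sh3kbp1 lies farthest right of the other lists at 2.14, and the arrow stands for Ddr2 at 5.90.

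Ddr1 and Erbb3 are epithelial genes by their usual expression, so 9 markers of lung epithelium and carcinoma stand beside them. Of these, 5 were tested, 4 fell at the adjusted p, against 26.3% of all tested genes, and none rose. Cdh1, which encodes E-cadherin, fell from 56.2 ± 4.92 to 20.5 ± 1.14 CPM (SD, n = 3 and 3; log2 fold change -1.45 ± 0.0958, edgeR adjusted p = 5.1e-05) and was the gene past the threshold. Krt8 fell by 0.40 on the log2 scale (SE 0.0812, edgeR adjusted p = 0.0046). Krt18 was at -0.19 ± 0.0697 with an adjusted p of 0.0496 (edgeR), which was 0.057 or more without sg-con replicate 2 or 3 or any of the sg-kiaa1522 libraries, and 0.055 to 0.131 with RLE size factors, both other filters, the likelihood ratio test or the replicate block. The summed CPM of the list was 3855 to 4571 in sg-con and 3244 to 3493 in sg-kiaa1522, its part in the falls of Ddr1 and Erbb3 was not tested, and Epcam stayed at 0.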

How the data were processed

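Per the labels, total RNA of 889 cells was sequenced in 3 sg-con and 3 sg-kiaa1522 libraries, and the labels gave the groups and replicate numbers. The authors trimmed reads and removed rRNA with Seqtk, mapped them to GRCm38 with HISAT2 2.0.4 and counted uniquely mapped fragments with StringTie 1.3.0 (submitters' processing notes and methods), and the deposited values are whole-number counts per gene, not normalized. The annotation release and the use of strand are not given in the sources used here. The TPM and CPM values given were computed from these counts.

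The 10 receptors and the 14 lists, and the genes named from them, were chosen with earlier results of these data known. As in the methods, a gene was tested where its 6 counts summed to more than 500 (10046 genes, between 99.5% and 99.6% of each library's counts), and the threshold was an adjusted p of 0.05 with a log2 fold change of 1 in either direction.  edgeR 4.0.16 (R 4.3.3) was used with TMM factors between 0.990 and 1.01, its quasi-likelihood test without covariates, and Benjamini-Hochberg adjustment over all tested genes. The script was tested on simulated data. CPM are TMM-normalized. TPM used summed exon lengths of GENCODE M21, to which 34344 gene identifiers were matched. Promoter windows came from RefSeq (GRCm38.p6), which listed 7 of the 10 receptors. Erbb3, Fgfr1 and Pdgfrb are named only. The CPM of single receptors was compared by exact two-sided permutation tests. These gave 0.10, the smallest possible p, for Pdgfrb, Ddr1 and Erbb3 and also for Erbb2 and Met, which edgeR did not call. Each list names its genes past the threshold (at most 4) and its 2 tested genes of highest mean CPM, and other genes are marked as chosen after their values were seen. Alternatives were RLE factors, library size alone, 2 other filters, DESeq2 1.42.0, edgeR's likelihood ratio test, the replicate number as a block, each library left out, chromosome medians removed and mean transcript lengths.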

Additional observations from a re-analysis of the deposited data

How the results depend on the processing

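For the 6 tested receptors other than Ddr2 no alternative turned a direction. Ddr2 is left out, since its direction was fixed once it passed the 500-count filter, and its range below is a description. RLE size factors, library size alone, both other filters, DESeq2's Wald test, edgeR's likelihood ratio test, the replicate block and the removal of chromosome medians left each of the 6 other than Ddr2 on its side of the adjusted p of 0.05. Over the fits that leave out 1 library each, the log2 fold change ran from 5.41 to 6.30 for Ddr2, from -0.94 to -0.59 for Pdgfrb, from -0.64 to -0.45 for Ddr1, from -0.51 to -0.40 for Erbb3, from -0.336 to -0.183 for Erbb2, from -0.23 to -0.11 for Met and from 0.0783 to 0.142 for Axl (0.0786 with the filter on 5 libraries). Erbb2 and Axl passed the adjusted p in the fits without sg-con replicate 1 only (-0.336 and 0.139, or -0.334 and 0.142 with the genes of the 6-library filter kept, an alternative chosen after seeing the data), so that apart from Ddr2, 5 receptors were called there and 3 without each other library. The number past the threshold is Ddr2 alone, which the filter fixed: it ran from 0 to 1, the 0 arising without sg-kiaa1522 replicate 2 or 3, where Ddr2 falls under the 500-count filter.

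In the lists, leaving out a library gave 3 to 8 calls among the other receptors and 7 to 16 among the adaptors. Calls over all genes ran from 4069 to 5822 in the same fits. The leukocyte and endothelial markers went from 0 to 1, which is no result about these lists, since it says only whether Cd68 (each sg-kiaa1522 library) and Vwf (sg-kiaa1522 replicate 2 or 3) fell under the filter. Testing every gene with a count gave 1 call for the Met and Axl ligands, 3 for the FGF ligands, 2 for the fibroblast markers and 2 for the leukocyte markers, and filterByExpr gave 1, 2 and 2 for the first 3 of these. These list counts are at the adjusted p, and these filters test more genes. At the adjusted p, 6198 of 18499 genes were called with every gene and 6201 of 12141 with filterByExpr, against 5277 of 10046. Past the threshold, the calls over all genes were 767 higher and 941 lower with every gene. They were 607 and 812 with filterByExpr, against 275 and 436. Same-numbered libraries did not deviate together (correlations of -0.21, -0.05 and -0.17), but 3 pairs cannot decide whether the numbers pair them. With the replicate number as a block, the calls over all genes went from 5277 to 4220, those among the other receptors to 3 and those among the adaptors to 7. With mean transcript lengths the level was 853 TPM for Axl, 69.5 for Met, 24.7 for Erbb2, 8.66 for Pdgfrb and 8.39 for Erbb3. Col4a2, not called, was at 0.0014 without sg-con replicate 1 with the 6-library genes kept. Depth limits Egfr, Fgfr1, Pdgfra and the sg-con level of Ddr2.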

Other observations

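The genes whose pattern over the 6 libraries was most like that of Ddr2, by the root mean square difference of centred log2 CPM among 10045 other tested genes, were Arap3 (0.293) and Ctsc (0.363). Arap3 had 32, 15 and 17 counts in sg-con and 634, 850 and 1021 in sg-kiaa1522. Ctsc encodes cathepsin C, a lysosomal protease that activates granule proteases, and had 8, 2 and 4 counts in sg-con and 111, 175 and 227 in sg-kiaa1522. This is a description of likeness over 6 libraries that fall into 2 groups.

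The genes next to Egfr, Fgfr1 and Pdgfra differed widely in their counts. Sec61g, on the lower side of Egfr, had between 397 and 722 counts in every library, whereas Vstm2a on the same side was at 0. On the higher side, Fbxo48 had between 5 and 37 counts. Tacc1, beside Fgfr1, had between 1253 and 1922 counts, and Chic2, beside Pdgfra, had between 889 and 1335. The neighbours of Pdgfra on its higher side are the receptor genes Kit and Kdr, which had at most 1 and at most 5 counts. Beside Ddr2, Uap1 had 1737, 1827 and 1699 counts in sg-con and 1102, 1693 and 1556 in sg-kiaa1522, and Hsd17b7 had 391, 351 and 376 against 145, 241 and 235.

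The FGF ligand genes Fgf18 and Fgf2 and the receptor gene Ret were under the filter and are given without a test. Fgf18 had 29, 26 and 25 counts in sg-con and 1, 6 and 5 in sg-kiaa1522. Fgf2 had 133, 32 and 99 counts in sg-con and 70, 5 and 8 in sg-kiaa1522, and the groups overlapped. Ret, a receptor of GDNF family ligands, had 0, 1 and 0 counts in sg-con and 1, 10 and 9 in sg-kiaa1522. These genes were chosen after their values were seen.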
